A study of Mus musculus with 15 samples.

Results

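The genes described here encode enzymes of glycolysis from glucose-6-phosphate isomerase to enolase, with lactate dehydrogenase, and leave out pyruvate kinase. They are Gpi1, Pfkl, Aldoa, Tpi1, Gapdh, Pgk1, Pgam1, Eno1, Eno1b and Ldha, chosen by gene name. The 10 names matched 11 of the 54532 genes in the table, because Aldoa stands for 2 gene identifiers. Of these, 10 passed the filter on low values (3 or more libraries at an FPKM, fragments scaled by gene length and library depth, of 1 or above), as did 13026 genes in all. The second Aldoa locus (ENSMUSG00000114515, chr7:126800790-126809108 in GRCm38) held 0 to 14 fragments per library and was not tested. RNA was sequenced from mouse liver at postnatal day 12 in 15 libraries. There were 4 libraries of BALBc hyperoxia, 3 of BALBc normoxia, 4 of C57 hyperoxia and 4 of C57 normoxia. Mice of the hyperoxia groups were moved to 75% oxygen on day 7 and stayed there until day 12, whereas those of the normoxia groups stayed in room air throughout. The exposure is that of oxygen-induced retinopathy, and the series set out to compare liver metabolism between a resistant strain, BALBc, and a susceptible one, C57. The labels give neither the substrain nor the sex. Nothing in them says that each library is a separate animal, so p-values reflect only the spread among these libraries, part of which may be technical.

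Glycolysis splits glucose into pyruvate, with a gain of ATP and NADH, and lactate dehydrogenase turns pyruvate into lactate while renewing NAD+. In hepatocytes most of the steps run in either direction, so the same enzymes serve glycolysis in the fed state and gluconeogenesis in fasting. Many of these genes are textbook targets of hypoxia-inducible factor (HIF), the transcription factor that is stable in low oxygen and degraded in high oxygen. Several, Gapdh and Eno1 in particular, have processed pseudogenes, intronless copies of their mRNA elsewhere in the genome.

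The deposited FPKM correspond to 1.49e+07 to 1.91e+07 fragments per library, read from the steps between low values. The values show 2 unnamed classes of libraries, by the share of genes at exactly 1 fragment among those at 1 to 10 fragments. It was 29.7% to 33.5% in 7 libraries and 10.3% to 18.2% in 8. All 4 C57 hyperoxia libraries, 1 of 4 C57 normoxia, 1 of 4 BALBc hyperoxia and 1 of 3 BALBc normoxia libraries had the higher share. This class therefore largely runs with oxygen in C57, and with strain in hyperoxia. Defining hepatocyte genes such as Alb and Ttr were abundant, and the 12 hepatocyte markers summed to 89250 FPKM or more in every library. The 10 skeletal muscle markers summed to 0.0571 to 5.75 FPKM per library, and Mb, muscle myoglobin, was listed at 0 in all 15.

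The genes spanned a wide range of levels per length. Ldha, which reduces pyruvate to lactate, had the highest level in every group. It averaged 346.7 ± 28.6 FPKM in BALBc hyperoxia and 343.0 ± 19.1 FPKM in BALBc normoxia, with 393.0 ± 32.9 FPKM in C57 hyperoxia and 440.3 ± 39.2 FPKM in C57 normoxia (SD, n = 4, 3, 4 and 4). Below it, over all 15 libraries, came Pgk1 (median 122.2 FPKM), Tpi1 (90.1 FPKM), Eno1 (60.5 FPKM) and Pgam1 (52.4 FPKM). Aldoa (25.1 FPKM), Gpi1 (20.2 FPKM) and Pfkl (10.05 FPKM) were lower, and Eno1b, a retrotransposed enolase gene, had 33.6 FPKM or more in each BALBc library and 5.42 FPKM or less in each C57 library. Pgk1 and Tpi1 overlapped in their ranges, 97.5 to 146.1 FPKM against 72.2 to 116.8 FPKM, as did Aldoa and Gpi1, at 19.98 to 39.9 FPKM and 17.5 to 30.8 FPKM, and Eno1 and Pgam1, at 27.7 to 94.9 FPKM and 36.7 to 98.9 FPKM. Gapdh, among the most abundant enzymes of most cells, was lowest, with a median of 1.84 FPKM and a range of 0.561 to 9.10 FPKM. The order of levels was not the same in the strains, because Eno1b and Pgam1 stood higher and Eno1 lower in BALBc.

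**Figure D1:**
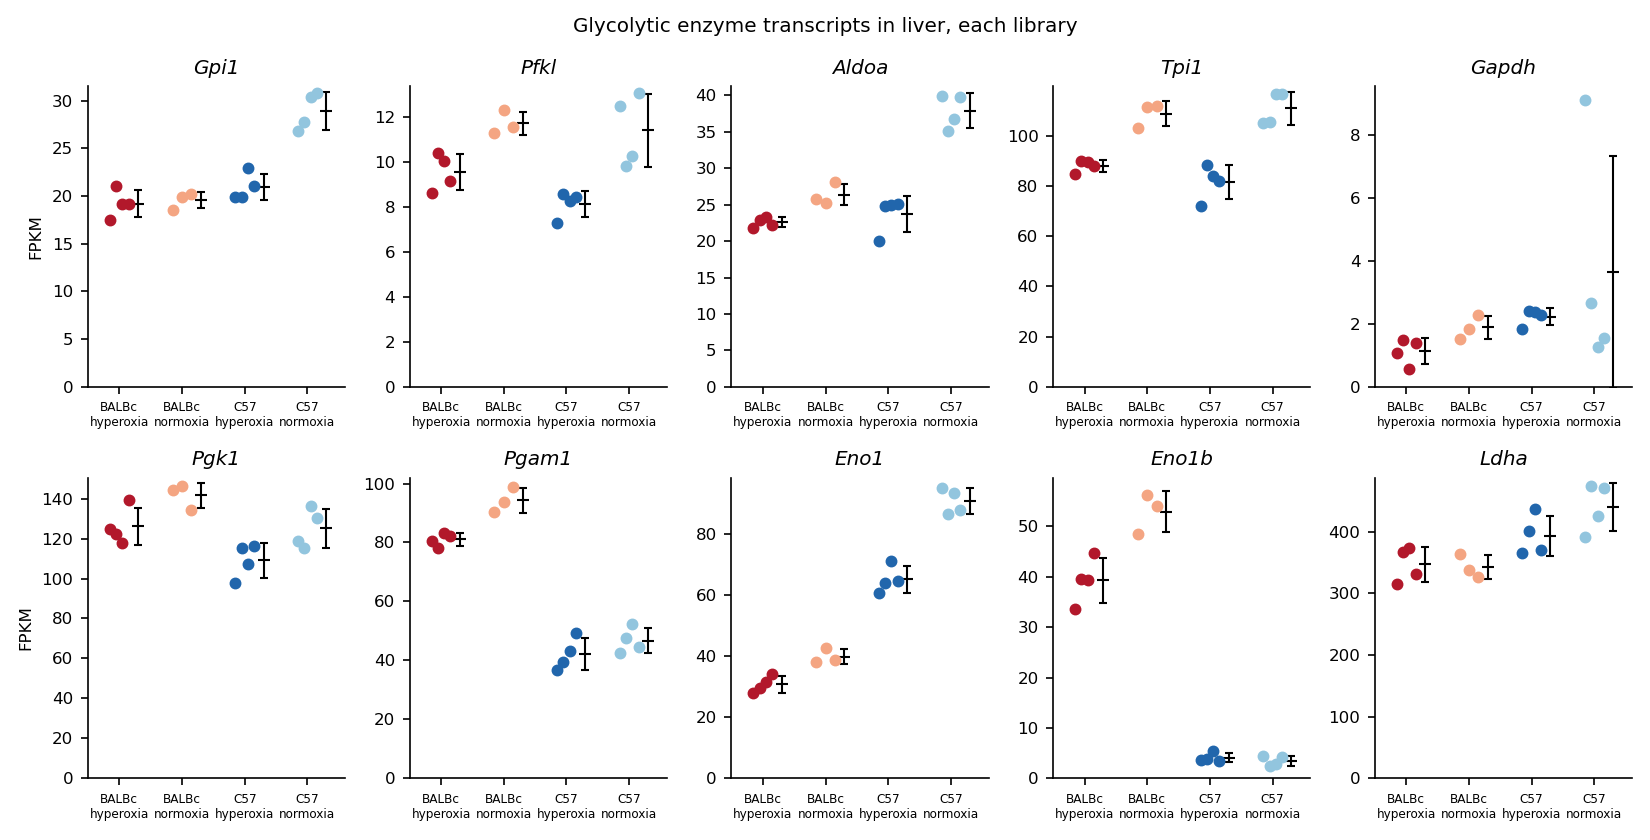
FPKM (vertical axes, from 0) of the 10 glycolysis genes in each library, by group; dots are libraries and the black bars beside them the mean and SD (n = 4, 3, 4 and 4; the lower Gapdh bar of C57 normoxia ends at the axis). The 4 C57 hyperoxia libraries lie below the 4 C57 normoxia libraries for Gpi1, Pfkl, Aldoa, Tpi1 and Eno1, and the strains stand apart for Pgam1, Eno1 and Eno1b.

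In C57 livers, 5 of the 10 genes were lower in hyperoxia than in normoxia and 0 were higher. Library class largely ran with oxygen in these groups, so the falls given below are differences between groups. Aldoa, Eno1, Tpi1, Gpi1 and Pfkl were lower, from Tpi1, which fell by 26.4% in mean FPKM, to Aldoa, which fell by 37.4%, and these 5 were also the genes whose C57 groups did not overlap. Of all 13026 genes, 0.714% were lower and 0.223% higher at the same threshold, an adjusted p under 0.05 from limma on log2(FPKM + 1), and 7.88% had groups that did not overlap. The median log2 change of the 10 genes was -0.34, and 9 of them were below 0, against a median of 0.0024 over all genes. In bulk liver, fewer cells of a type and less RNA per cell cannot be told apart.

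Of the upper steps, Gpi1 and Pfkl both fell in C57. Gpi1 (ENSMUSG00000036427, chr7:34201330-34230336), glucose-6-phosphate isomerase, had 19.9, 19.9, 22.9 and 21.1 FPKM in C57 hyperoxia, against 26.8, 27.8, 30.4 and 30.8 FPKM in C57 normoxia. Pfkl (ENSMUSG00000020277, chr10:77986947-78010083), the liver subunit of phosphofructokinase and the committed step, had 7.30, 8.57, 8.26 and 8.47 FPKM in C57 hyperoxia, against 12.5, 9.82, 10.3 and 13.1 FPKM in C57 normoxia. Each of these hyperoxia libraries lay below each normoxia library. Gpi1 fell by 0.45 on the log2 scale (SE 0.073, adjusted p = 0.0106 in limma) and Pfkl fell by 0.43 (SE 0.093, adjusted p = 0.0439).

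Aldoa (ENSMUSG00000030695, chr7:126795234-126800751), the aldolase of most tissues outside liver parenchyma, showed the largest fall of the 10. It had 19.98, 24.9, 24.99 and 25.1 FPKM in C57 hyperoxia, against 39.9, 35.1, 36.8 and 39.8 FPKM in C57 normoxia. Tpi1 (ENSMUSG00000023456, chr6:124810586-124814296), triosephosphate isomerase, had 72.2, 88.4, 83.95 and 82.1 FPKM in C57 hyperoxia, against 105.0, 105.5, 116.7 and 116.8 FPKM in C57 normoxia. For both genes C57 hyperoxia replicate 1 was the lowest of all 15 libraries. The log2 change was -0.66 for Aldoa (SE 0.078, adjusted p = 0.00225) and -0.44 for Tpi1 (SE 0.068, adjusted p = 0.00737).

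Among the lower steps Eno1 (ENSMUSG00000063524, chr4:150236721-150248879), the alpha-enolase that makes phosphoenolpyruvate, fell, with 60.5, 63.9, 71.0 and 64.4 FPKM in C57 hyperoxia against 94.9, 86.45, 93.4 and 87.7 FPKM in C57 normoxia. Its log2 change was -0.47 (SE 0.073, adjusted p = 0.00737), and the groups were separated by more than either group's range. Pgk1, phosphoglycerate kinase, had 97.5, 115.3, 107.4 and 116.1 FPKM in C57 hyperoxia, against 118.6, 115.4, 136.2 and 130.5 FPKM in C57 normoxia. The Pgk1 groups overlapped, and its log2 change of -0.20 (95% interval -0.36 to -0.03, adjusted p = 0.251) did not pass. Pgam1, phosphoglycerate mutase, also overlapped, at a log2 change of -0.15 (interval -0.33 to 0.04, adjusted p = 0.463). For Ldha the change was -0.16 (interval -0.34 to 0.01, adjusted p = 0.392). Gapdh differed by -0.25 with a wide interval of -0.98 to 0.48 (adjusted p = 0.788), and without C57 normoxia replicate 1, the library at 9.10 FPKM, by 0.22 (adjusted p = 0.606). Eno1b was the one gene above 0, at 0.22 (interval -0.12 to 0.55, adjusted p = 0.560).

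The C57 result moved with library class. With class as a term, Aldoa kept its call (log2 change -0.66, adjusted p = 0.0365), while Tpi1 (-0.42, adjusted p = 0.0721), Eno1 (-0.39, adjusted p = 0.0767), Gpi1 (-0.41, adjusted p = 0.0793) and Pfkl (-0.44, adjusted p = 0.151) did not pass. Within the class with the higher share, which leaves 1 C57 normoxia library, the changes were -0.73 for Aldoa, -0.515 for Tpi1, -0.43 for Eno1, -0.535 for Gpi1 and -0.63 for Pfkl, with adjusted p of 0.138 to 0.188. The changes in these fits lay between -0.39 and -0.73. The Kupffer cell and macrophage markers summed to 578.2 to 702.5 FPKM in C57 hyperoxia, against 853.6 to 1295 FPKM in C57 normoxia, and 3 of the 17 were lower and 1 higher. Hepatocyte markers summed to 99180 to 101900 FPKM in C57 hyperoxia and 91640 to 116600 FPKM in C57 normoxia, with 0 of 12 called and 7 of 12 changes below 0. Of 16 erythroid markers tested, 0 were called in C57 and 14 changes were below 0. The part of library class and of macrophage and erythroid RNA in the C57 falls was not tested beyond these values. Without C57 hyperoxia replicate 1, Aldoa (-0.58, adjusted p = 0.00321), Tpi1 (-0.38, 0.0261), Eno1 (-0.44, 0.0372) and Gpi1 (-0.425, 0.0490) kept their calls, and Pfkl (-0.39, 0.136) did not. Across the 15 refits that leave out 1 library each, Pfkl passed in 4, those without BALBc hyperoxia replicates 1 or 2 and C57 normoxia replicates 2 or 3, and its adjusted p reached 0.136. Fitted on the 8 C57 libraries alone, Aldoa and Eno1 kept their calls, and Gpi1 (adjusted p = 0.0817), Tpi1 (0.0864) and Pfkl (0.16) did not. The Pfkl call was also lost with quantile normalization, no filter, no variance trend or a term for replicate number.

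In BALBc livers, 1 of the 10 genes, Eno1, was lower in hyperoxia than in normoxia and 0 were higher. The shares over all genes were 0.537% lower and 0.407% higher. The median log2 change of the 10 genes was -0.24, against 0.00097 over all genes, and 9 were again below 0. Groups did not overlap for 7 of the 10, against 13.6% of all genes; the normoxia group here has 3 libraries, which makes a lack of overlap easier than in C57.

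Eno1 had 27.7, 29.5, 31.4 and 34.2 FPKM in BALBc hyperoxia, against 38.2, 42.4 and 38.8 FPKM in BALBc normoxia, so that every hyperoxia library was lower. Its log2 change was -0.37 (SE 0.079, adjusted p = 0.0437). That call was close to the threshold: 9 of the 15 refits that leave out 1 library lost it, with adjusted p of 0.0528 to 0.185. These were the refits without BALBc hyperoxia replicates 1, 2 and 3, each of the 3 BALBc normoxia replicates, and C57 hyperoxia replicates 1, 2 and 4. Among the libraries of the lower-share class alone, 3 hyperoxia and 2 normoxia, the change was -0.35 (adjusted p = 0.247). Hepatocyte markers summed to 89250 to 91590 FPKM in BALBc hyperoxia, against 94070 to 102000 FPKM in BALBc normoxia, and 1 of the 12 was lower. Kupffer cell and macrophage markers summed to 307.4 to 393.5 FPKM in BALBc hyperoxia and 328.8 to 372.8 FPKM in BALBc normoxia, with 0 of 17 called. Neutrophil lineage markers summed to 109 to 160.6 FPKM in BALBc hyperoxia, against 62.56 to 102.6 FPKM in BALBc normoxia, without overlap, and 0 of the 8 were called. Of 16 erythroid markers tested, 0 were called in BALBc and 13 changes were above 0. The part of hepatocyte, neutrophil and erythroid RNA in the Eno1 fall was not tested.

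Tpi1 had 84.7, 90.1, 89.7 and 88.0 FPKM in BALBc hyperoxia, against 103.2, 111.6 and 111.9 FPKM in BALBc normoxia. The hyperoxia libraries of Tpi1 were all lower, by 19.1% in mean FPKM, but the log2 change of -0.30 (interval -0.46 to -0.15) had an adjusted p of 0.0685 and did not pass. Pfkl, Aldoa and Pgam1 likewise had groups that did not overlap, with changes of -0.27 (adjusted p = 0.253), -0.21 (adjusted p = 0.289) and -0.22 (adjusted p = 0.347). Aldoa, for example, had 21.8, 23.0, 23.4 and 22.2 FPKM in BALBc hyperoxia, against 25.85, 25.25 and 28.05 FPKM in BALBc normoxia. Eno1b also had separate groups, at a log2 change of -0.425 (adjusted p = 0.295), and so had Gapdh, at -0.45 (adjusted p = 0.696). Gpi1 and Ldha were the genes nearest 0, at -0.03 (interval -0.19 to 0.14) and 0.01 (interval -0.18 to 0.20).

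The response of BALBc minus that of C57 tests whether the strains differed. Library class largely ran with oxygen in C57 but not in BALBc, so it enters this difference. None of the 10 genes passed (0 of 10, against 0.821% of all genes), and 3 of the 10 had an unadjusted p under 0.05, a level that 12.7% of all genes reached. The 3 were Gpi1, with a difference of 0.42 (SE 0.11, adjusted p = 0.0894), Aldoa, at 0.44 (SE 0.11, adjusted p = 0.0908), and Eno1b, at -0.64 (SE 0.23, adjusted p = 0.232). For Eno1 the difference was 0.11, with an interval of -0.12 to 0.34, and for Tpi1 0.14, with an interval of -0.08 to 0.35. Calls in C57 that are missing in BALBc are therefore not shown to be differences between strains.

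Taking the mean of both strains' responses, 4 of the 10 genes were lower and 0 higher. Of all genes, 0.606% were lower and 0.261% higher. Aldoa changed by -0.44 (SE 0.057) and Eno1 by -0.42 (SE 0.054), both at an adjusted p of 0.00245. Tpi1 changed by -0.37 (SE 0.050, adjusted p = 0.00265) and Pfkl by -0.35 (SE 0.068, adjusted p = 0.0297). Gpi1 stayed just short, at -0.24 (adjusted p = 0.0552). All 10 mean changes were below 0, down to -0.07 for Ldha (interval -0.20 to 0.05), with a median of -0.29 against 0.0025 over all genes. With quantile normalization the Ldha mean change was 0.03, above 0. That scaling also moved the split of all called genes, to 36 higher and 52 lower in C57 (29 and 93 without it) and to 54 higher and 49 lower for the mean response (34 and 79 without it). With library class as a term, 3 of the 4 genes kept their call in the mean response, and Pfkl did not. The mean-response call of Pfkl was also lost without BALBc hyperoxia replicates 1 or 4, BALBc normoxia replicates 2 or 3, or C57 hyperoxia replicates 1 or 3, with adjusted p of 0.058 to 0.0815.

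**Figure D2:**
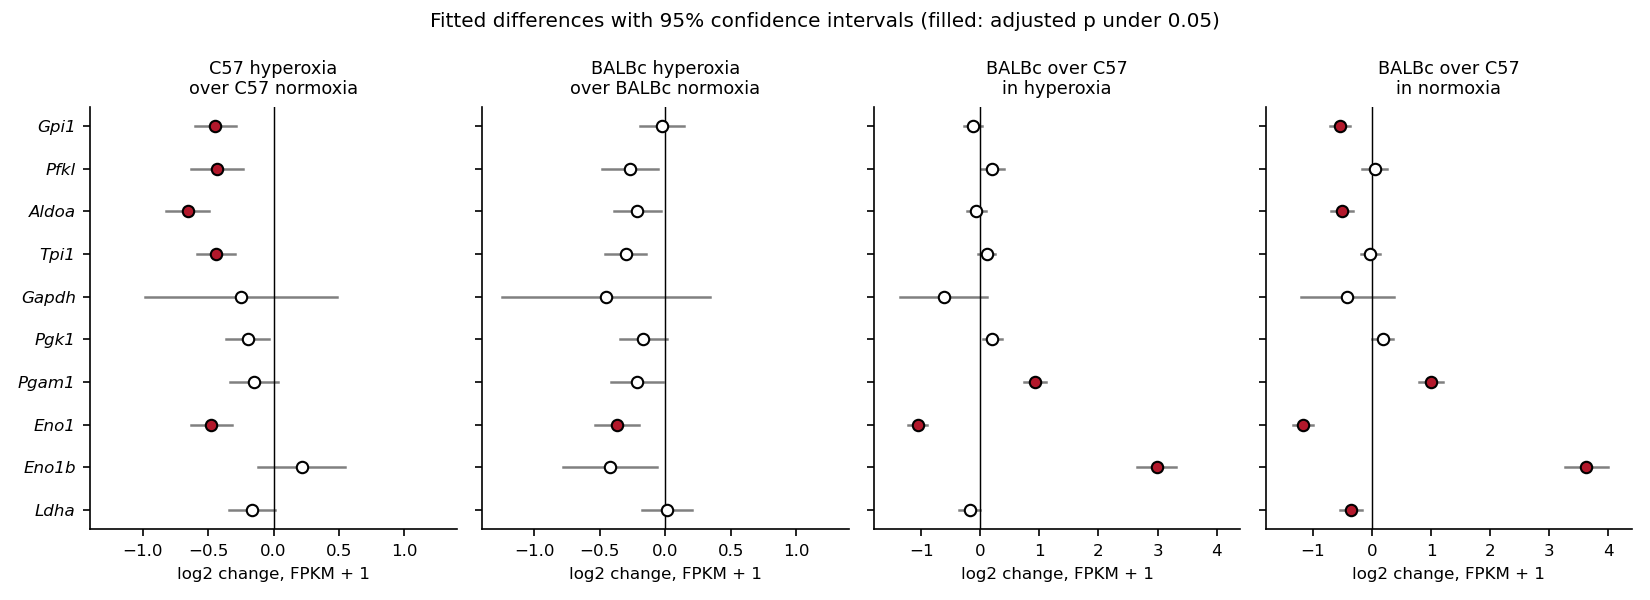
Fitted log2 change of FPKM + 1 (horizontal axes) of each gene in 4 comparisons; dots are estimates, lines 95% confidence intervals, and red dots passed an adjusted p under 0.05. The 5 red dots of the C57 comparison lie between -0.66 and -0.43, and the strain comparisons reach 2.99 and 3.63 for Eno1b.

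BALBc was also compared with C57 in each condition. In hyperoxia library class largely ran with strain, because all 4 C57 libraries and 1 of 4 BALBc libraries had the higher share. With class as a term, the Pgam1, Eno1 and Eno1b calls in hyperoxia were kept. The part of class in the strain differences was not tested further. Of the 10 genes, 2 were higher and 1 lower in BALBc hyperoxia than in C57 hyperoxia, and 2 higher and 4 lower in BALBc normoxia than in C57 normoxia. Over all genes the shares were 11.9% higher and 11.3% lower in hyperoxia, and 15.4% higher and 14.6% lower in normoxia. In each condition 6 of the 10 genes had strain groups that did not overlap, against 32.3% of all genes in hyperoxia and 30% in normoxia. These comparisons share libraries with the oxygen comparisons, so a high C57 normoxia level enters both.

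Pgam1 (ENSMUSG00000011752, chr19:41911923-41918660) had 80.5, 78.1, 83.3 and 82.2 FPKM in BALBc hyperoxia, against 36.7, 39.6, 43.0 and 49.5 FPKM in C57 hyperoxia. In normoxia it had 90.4, 93.65 and 98.9 FPKM in BALBc, against 42.35, 47.55, 52.4 and 44.6 FPKM in C57. The strains did not overlap, and the log2 difference was 0.93 in hyperoxia (SE 0.086, adjusted p = 1.75e-06) and 1.001 in normoxia (SE 0.093, adjusted p = 1.76e-06). Near-identical copies of Pgam1 number 3, and adding their fragments was among the alternatives tried.

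Eno1 and Eno1b differed between strains in opposite directions. Eno1 averaged 30.7 ± 2.75 FPKM in BALBc hyperoxia and 65.0 ± 4.38 FPKM in C57 hyperoxia, a log2 difference of -1.06 (SE 0.073, adjusted p = 6.96e-08). In normoxia it averaged 39.8 ± 2.31 FPKM in BALBc and 90.6 ± 4.17 FPKM in C57, a difference of -1.17 (SE 0.079, adjusted p = 5.83e-08). Eno1b (ENSMUSG00000059040, chr18:48045335-48048412) had 33.6, 39.5, 39.3 and 44.7 FPKM in BALBc hyperoxia, against 3.72, 3.84, 5.42 and 3.46 FPKM in C57 hyperoxia. In normoxia Eno1b had 48.45, 56.35 and 54.0 FPKM in BALBc, against 4.49, 2.36, 2.75 and 4.17 FPKM in C57. Its log2 difference was 2.99 in hyperoxia (adjusted p = 2.87e-09) and 3.63 in normoxia (adjusted p = 7.9e-10), a ratio of mean FPKM of 9.56 and 15.4.

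Aldoa and Gpi1 differed between strains in room air and not detectably in hyperoxia. Aldoa was lower in BALBc normoxia than in C57 normoxia by a log2 difference of -0.51 (SE 0.084, adjusted p = 0.000359), and Gpi1 by -0.54 (SE 0.079, adjusted p = 0.000123). In hyperoxia Aldoa differed by -0.06 (interval -0.23 to 0.10) and Gpi1 by -0.12 (interval -0.28 to 0.04). Ldha was lower in BALBc normoxia, with 364.0, 338.3 and 326.8 FPKM against 391.4, 473.8, 426.0 and 470.2 FPKM in C57 normoxia, a difference of -0.36 (SE 0.089, adjusted p = 0.00713). The Ldha call was lost with quantile normalization (-0.198, adjusted p = 0.104) and in the higher-share class (-0.37, adjusted p = 0.19). Pgk1, Tpi1 and Pfkl passed in neither condition, and their differences lay between -0.03 and 0.21. However, Pgk1 in normoxia passed with quantile normalization (0.23, adjusted p = 0.0193). In hyperoxia Pgk1 stayed uncalled in 12 of 13 alternative settings, and its lowest adjusted p in limma was 0.0108. The Kupffer cell and macrophage markers summed to 307.4 to 393.5 FPKM in BALBc libraries and 578.2 to 1295 FPKM in C57 libraries. Of 16 erythroid markers tested, 11 were higher in BALBc in hyperoxia and 6 in normoxia, with 0 lower. Of 8 neutrophil lineage markers, 6 were higher in BALBc in hyperoxia and 0 in normoxia, with 0 lower. The part of these cells in the strain differences was not tested.

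Reads of Gapdh and Eno1 may be shared with other loci. The transcripts of 152 other genes align to Gapdh over at least 300 bases at 90% identity or more, and those of 5 other genes to Eno1. The copy with the most fragments for Gapdh was Gm13394 (ENSMUSG00000083773, chr2:28933610-28934609), a processed pseudogene that differs from the Gapdh coding sequence at 1 of 1000 aligned bases. For Eno1 it was Eno1b, and after it the processed pseudogene Gm4735 (ENSMUSG00000064193, chr2:80837141-80838442), which differs from Eno1 at 5 of 1302 bases. The sources used here do not give how fragments that match several loci were counted. The single Gapdh difference is printed here in the spliced GENCODE M21 transcripts, 30 bases to each side, with the differing base in capitals. It is A346C, counted from 1 at the A of the Gapdh start codon, at chr6:125163016 in GRCm38, the first base of codon 116. The first of the 5 Eno1 differences, T726C, is the third base of codon 242.
Gapdh: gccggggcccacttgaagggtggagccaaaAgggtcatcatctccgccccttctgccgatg
Gm13394: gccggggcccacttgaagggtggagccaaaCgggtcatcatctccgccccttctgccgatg
Eno1: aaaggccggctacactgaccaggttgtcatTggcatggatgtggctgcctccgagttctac
Gm4735: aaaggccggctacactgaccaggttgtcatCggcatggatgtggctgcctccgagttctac

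The deposited values of Gm13394 and Gm4735 were higher in BALBc than in C57, and fragments of Gapdh and Eno1 may be among them. Gm13394 had 160.4, 143.8, 160.3 and 168.3 FPKM in BALBc hyperoxia and 208.5, 218.0 and 207.1 FPKM in BALBc normoxia, against 1.445, 1.79, 1.74 and 1.98 FPKM in C57 hyperoxia and 2.05, 0.680, 0.930 and 2.095 FPKM in C57 normoxia. The ratio of mean FPKM was 90.9 in hyperoxia and 147 in normoxia, with log2 differences of 5.86 and 6.495 (adjusted p = 3.11e-12 and 2.16e-12). Gm4735 averaged 40.3 ± 1.08 FPKM in BALBc hyperoxia and 53.8 ± 1.54 FPKM in BALBc normoxia, against 3.06 ± 0.684 FPKM in C57 hyperoxia and 3.26 ± 0.538 FPKM in C57 normoxia. Neither gene was called with oxygen in either strain, although in BALBc every hyperoxia library was below every normoxia library for both, at log2 changes of -0.42 for Gm13394 (adjusted p = 0.327) and -0.41 for Gm4735 (adjusted p = 0.133).

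Summed over each family, Eno1 with its copies had 293 ± 21.4 fragments per 1000000 (of the depth behind the FPKM) in BALBc hyperoxia, 386 ± 21.4 in BALBc normoxia, 361 ± 25.8 in C57 hyperoxia and 498 ± 23.5 in C57 normoxia. In BALBc hyperoxia 128 of these lay in the copies and in BALBc normoxia 172, against 11.9 in C57 hyperoxia and 10.8 in C57 normoxia. With the copies added, an alternative chosen after seeing the data, the Eno1 difference between BALBc and C57 was -0.30 in hyperoxia (adjusted p = 0.00618) and -0.36 in normoxia (adjusted p = 0.00217), smaller than for Eno1 alone and of the same sign. The Eno1 responses to hyperoxia moved little, at -0.46 in C57 (adjusted p = 0.00703) and -0.39 in BALBc (adjusted p = 0.0226).

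Gapdh alone held 4.67 ± 1.73 fragments per 1000000 in BALBc hyperoxia, 7.79 ± 1.57 in BALBc normoxia, 9.20 ± 1.09 in C57 hyperoxia and 15.1 ± 15.2 in C57 normoxia, where replicate 1 held 37.6 and the other 3 libraries 5.27 to 11 fragments per 1000000. With its copies it held 177 ± 12.0, 237 ± 5.53, 42.3 ± 4.15 and 48.6 ± 15.6 in the same order. The Gapdh copies other than Gm13394 ran the other way between strains, at 13.9 ± 2.11 in BALBc hyperoxia and 31.3 ± 3.25 in C57 hyperoxia, and at 17.7 ± 2.88 in BALBc normoxia and 32.1 ± 3.08 in C57 normoxia. The Gapdh difference between BALBc and C57 was -0.62 in hyperoxia and -0.41 in normoxia for Gapdh alone, and 1.96 (adjusted p = 1.69e-07) and 2.23 (adjusted p = 9.99e-08) with the copies added. Without C57 normoxia replicate 1 the difference for Gapdh alone in normoxia was 0.05 (adjusted p = 0.869). The deposited Gapdh value is therefore uncertain as a level and as a strain difference, and so are those of Eno1, Eno1b, Gm13394 and Gm4735.

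**Figure D3:**
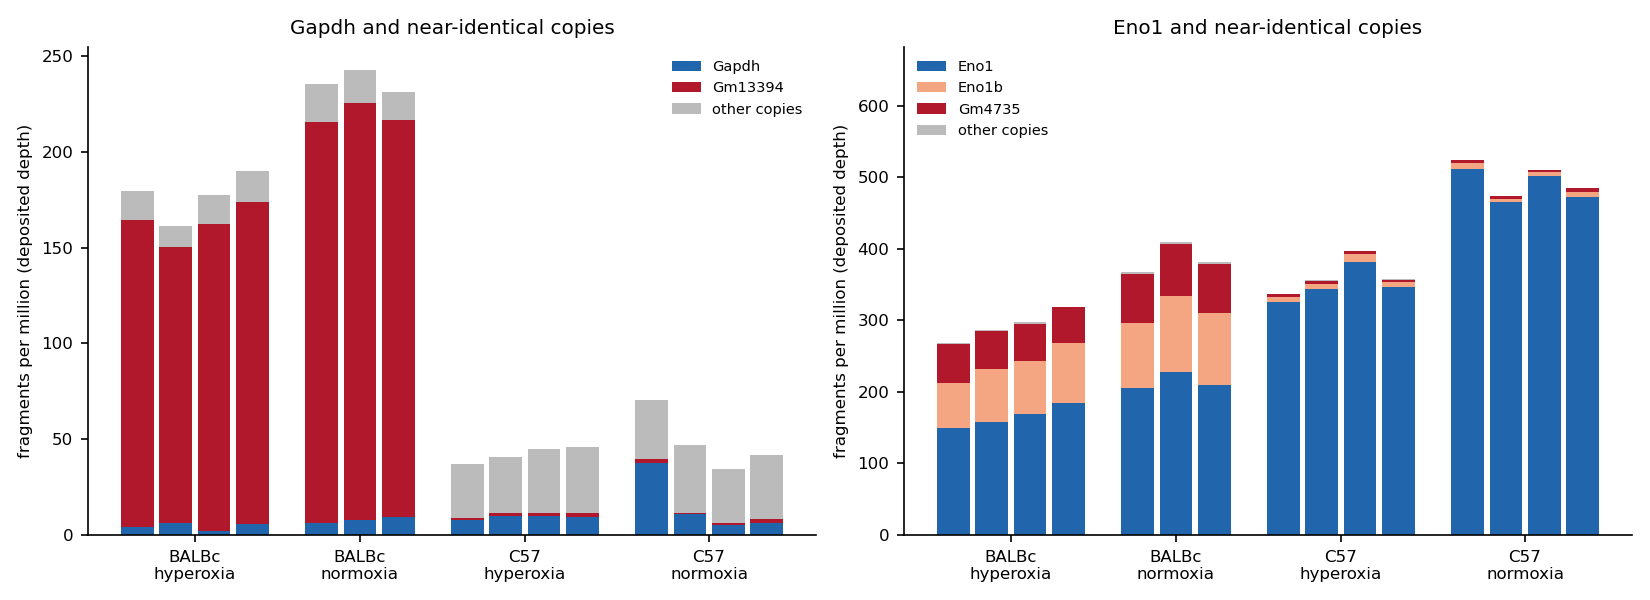
Fragments per 1000000 of the deposited depth (vertical axes, from 0) in each library, stacked for Gapdh and for Eno1 with their near-identical copies, libraries grouped by strain and oxygen. In BALBc libraries Gm13394 holds most of the Gapdh family and Eno1b and Gm4735 a visible part of the Eno1 family, whereas in C57 libraries Eno1 itself holds nearly all of its family.

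The promoters of the glycolysis genes, those that fell and those that did not pass, were read for the core of the HIF response element. The RefSeq table (GRCm38.p6, 250 bases before to 50 after each start) held 14 promoters for 9 of the 10 genes. The letters ACGTG and GCGTG were searched on both strands, overlapping matches included. ACGTG was in 6 of the 14 promoters, of 5 of the 9 genes, against 19.6% of 32851 promoters, and GCGTG was in 8 of the 14, against 32.4%. At least 1 of them was in 11 of the 14 promoters, of 7 of the 9 genes, against 43.8%. Neither was in the windows of Tpi1 and Gpi1, which both fell in C57. By contrast, 1 window of Ldha, which did not pass with oxygen in either strain, had the most, 5 of ACGTG and 2 of GCGTG. In that window each CACGTG counts as a match on both strands, so some of the 5 overlap and are not separate places. Pgk1, likewise not called, had 2 of ACGTG. Of the 3 Aldoa windows, 2 overlap and share 1 of ACGTG, and of the 3 Eno1 windows, 2 overlap and share 2 of GCGTG, so the shares of the 14 promoters count these matches more than once. Letters that match are a description of the sequence and not of binding. The 3 windows printed here were taken because Aldoa and Tpi1 fell while Ldha did not pass; capitals mark the cores on either strand.
Aldoa, chr7:126799205-126799504, minus strand: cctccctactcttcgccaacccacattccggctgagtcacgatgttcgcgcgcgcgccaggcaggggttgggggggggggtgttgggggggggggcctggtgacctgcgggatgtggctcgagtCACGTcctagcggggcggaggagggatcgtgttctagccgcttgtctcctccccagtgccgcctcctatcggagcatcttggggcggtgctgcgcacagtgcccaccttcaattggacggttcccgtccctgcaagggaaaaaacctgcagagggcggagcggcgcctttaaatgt
Tpi1, chr6:124814109-124814408, minus strand: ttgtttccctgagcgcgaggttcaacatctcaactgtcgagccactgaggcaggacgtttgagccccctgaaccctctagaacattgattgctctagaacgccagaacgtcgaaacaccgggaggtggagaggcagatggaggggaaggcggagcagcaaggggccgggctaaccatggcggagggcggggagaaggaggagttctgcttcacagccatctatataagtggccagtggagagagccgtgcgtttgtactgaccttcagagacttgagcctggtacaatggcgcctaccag
Ldha, chr7:46845554-46845853, plus strand: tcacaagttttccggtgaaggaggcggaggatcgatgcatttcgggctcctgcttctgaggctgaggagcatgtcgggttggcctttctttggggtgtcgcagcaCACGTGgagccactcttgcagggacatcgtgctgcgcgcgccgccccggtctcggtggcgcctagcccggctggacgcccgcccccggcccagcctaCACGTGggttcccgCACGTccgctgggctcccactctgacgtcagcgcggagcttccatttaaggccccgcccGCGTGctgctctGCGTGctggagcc

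The other genes of the pathway moved less as groups, by their median changes. Members and lists were chosen with earlier results of these data known, so that contrast is only a description. Of 22 other glycolytic isozymes 15 were tested. Pkm, the pyruvate kinase of most tissues other than liver parenchyma, averaged 10.65 ± 0.614 FPKM in C57 hyperoxia and 16.8 ± 2.75 FPKM in C57 normoxia, and fell by 0.60 on the log2 scale (adjusted p = 0.0206). Aldoc, the brain aldolase, was also lower in C57 hyperoxia, at 1.18 ± 0.214 FPKM against 2.76 ± 0.439 FPKM in C57 normoxia (log2 change -0.78, adjusted p = 0.0427). Pklr, the liver pyruvate kinase, changed by -0.33 in BALBc (adjusted p = 0.386) and 0.02 in C57 (adjusted p = 0.971). Over the list, 2 of 15 were lower and 0 higher in C57 (median -0.13), and 0 were called in BALBc (median -0.11). Of all genes, 0.714% were lower and 0.223% higher in C57, and 0.537% lower and 0.407% higher in BALBc. The medians over all genes were 0.0024 in C57 and 0.00097 in BALBc.

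Genes that control glycolysis, carry glucose, lactate and pyruvate, or admit pyruvate to the mitochondrion numbered 29, of which 25 were tested. In C57 0 were called (median -0.06). In BALBc 2 were higher and 0 lower (median 0.04), where 0.407% of all genes were higher. Txnip, which limits glucose uptake, averaged 33.4 ± 3.55 FPKM in BALBc hyperoxia and 22.02 ± 1.46 FPKM in BALBc normoxia, a log2 change of 0.58 (adjusted p = 0.0229). Pdk4, the kinase that switches off pyruvate dehydrogenase, averaged 13.9 ± 3.22 FPKM in BALBc hyperoxia and 6.46 ± 0.389 FPKM in BALBc normoxia, a change of 0.97 (adjusted p = 0.0325). The Txnip response differed between strains by 0.71 (adjusted p = 0.0427), and that of Pdk4 by 1.21, which did not pass (adjusted p = 0.0541). Slc2a2, the hepatocyte glucose carrier, changed by 0.14 in BALBc (adjusted p = 0.496) and -0.07 in C57 (adjusted p = 0.711).

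Of 8 gluconeogenesis genes 7 were tested. In C57 all 7 changes were below 0 and 0 were called (median -0.22). In BALBc 1 was lower (median -0.14), where 0.537% of all genes were. That gene, Slc37a4, the glucose-6-phosphate carrier, changed by -0.49 (adjusted p = 0.0322). Fbp1, fructose-bisphosphatase, changed by -0.15 in BALBc (adjusted p = 0.542) and -0.31 in C57 (adjusted p = 0.0949), and Pck1, phosphoenolpyruvate carboxykinase, by -0.14 in BALBc (adjusted p = 0.767) and -0.23 in C57 (adjusted p = 0.458).

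HIF targets outside glycolysis numbered 24, and 21 were tested. In C57, where 0.714% of all genes were lower, 2 were lower and 0 higher, with 17 of 21 changes below 0 (median -0.19). They were Hmox1, haem oxygenase, at -0.84 (adjusted p = 0.00225), and Ak4, a mitochondrial adenylate kinase, at -0.51 (adjusted p = 0.0461). In BALBc, where 0.537% of all genes were lower, 1 was lower and 0 higher, with 10 of 21 below 0 (median 0.06). The gene was Tfrc, the transferrin receptor, at -1.51 (adjusted p = 0.00378). The responses differed between strains for Hmox1, by 1.26 (adjusted p = 0.00291), and for Ak4, by 0.93 (adjusted p = 0.0195). Hmox1 is also made by macrophages, whose markers moved in the same direction in C57, and the part of these cells was not tested.

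**Figure D4:**
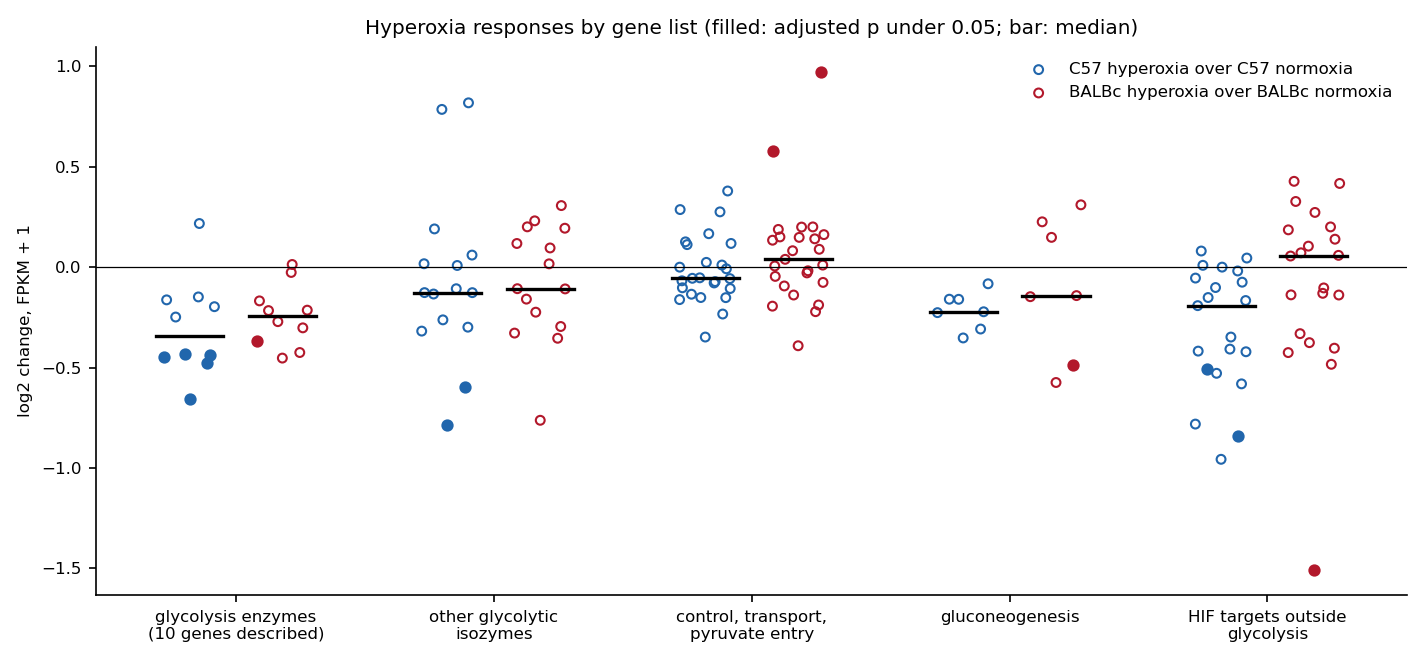
Log2 change of FPKM + 1 with hyperoxia (vertical axis) of each tested gene in 5 lists, in C57 (blue) and BALBc (red); filled dots passed an adjusted p under 0.05 and bars are medians. The glycolysis enzymes have medians of -0.34 in C57 and -0.24 in BALBc, and the 25 control and transport genes have medians near 0.

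Within the 10 genes, levels over the 15 libraries did not all run together. As a description across libraries, which share strain, oxygen and library class within groups, Aldoa and Gpi1 had a Pearson r of 0.90 and Tpi1 and Pfkl of 0.88, whereas Eno1 and Pgam1 had -0.82. Around the group means Aldoa correlated with Pfkl at 0.71 and with Tpi1 at 0.68, and Eno1 with Pgam1 at 0.24. A score was formed as the mean of the standardised log2 values of 9 of the genes, Eno1b left out. The 8 other genes most like it over the 15 libraries were Fabp4, Mif, Slc25a11, Cox14, Mrpl52, Psma6, Chchd2 and Fbp1, with r of 0.85 to 0.90. Around the group means they were Akt2, Krtcap2, Arf6, Apon, Mdh2, Cebpb, Txn2 and Vps53, with r of 0.79 to 0.86, so the lists hold different genes. Tpi1 correlated with the score at 0.91 over all libraries and 0.84 around the group means, Pgam1 at -0.10 and 0.47, and Gapdh at 0.43 and 0.03. Each of these genes is itself part of the score, which raises its r. Their values therefore cannot be set beside those of genes outside the score.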

How the data were processed

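Per the labels' protocols, liver RNA was isolated with TRIzol and sequenced from NEBNext Ultra II libraries. The authors deposited FPKM per gene. HISAT2 2.0.5 and featureCounts 1.5.0-p3, with the GRCm38 build, are named in the submitters' processing notes. Strandedness and the treatment of multi-mapped fragments were not given in the sources used here. Whole fragments were recovered from FPKM with GENCODE M21 lengths: 98.1% to 98.7% of values under 30 fragments were whole within 0.05. Lengths of Pgam1 and Eno1b may differ from the authors', so their fragments are approximate.

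Genes that reached an FPKM of 1 in 3 or more libraries entered limma 3.58.1 (R 4.3.3) on log2(FPKM + 1), with 1 mean per group over all 15 libraries, empirical Bayes moderation with a trend, and Benjamini-Hochberg adjustment over 13026 genes in each of 6 comparisons. A log2 change on this scale understates changes of low genes. The model was tested on simulated data without library classes and with larger changes than those of the glycolysis genes with oxygen. That test therefore does not cover effects of class or changes of the size seen here. FPKM are not counts, so no count model was run. Near-identical copies were found with BLAST 2.17.0 among M21 transcripts. Python 3.11.15, numpy 2.4.6, pandas 2.3.3 and matplotlib 3.10.9 were used.

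The members and gene lists were chosen with earlier results of these data known. All 10 genes were named, with the list genes called in any comparison or, in the first 3 lists, at a mean FPKM of at least 20; those given in the text are examples of these. Same-numbered libraries were treated as unpaired: of 21 pairs, 1 had a correlation of deviations over 0.1 (-0.0493 to 0.214). Alternatives were other scaling, pseudocount, filters, variance trend, samples in the fit, a replicate block, library class, added copies and leaving out each library. A result on 1 gene of these lists is not reported here.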

Additional observations from a re-analysis of the deposited data

Results flagged for a closer look

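Aldoa in C57 hyperoxia replicate 1 stood apart from its group, at 19.98 FPKM against 24.9, 24.99 and 25.1 FPKM in the other 3 libraries. The gap to the nearest library was 0.952 of the group's range, above Dixon's 95% critical value for 4 samples. It was the only one of 30 gene-by-group sets of 4 libraries to exceed that value, and chance gives about 1 in 20. Without this library the Aldoa change in C57 was -0.58 (adjusted p = 0.00321), and the cause was not tested.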

How the results depend on the processing

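In C57, where 5 glycolysis genes passed, 2 passed in a fit of the groups compared alone, 1 with library class as a term and 0 among the libraries of the higher-share class. In BALBc, where 1 passed, 0 passed with quantile normalization, no filter, no variance trend, the groups compared alone or either library class alone, 2 with a filter at an FPKM of 5, and 0 to 1 when single libraries were left out. For the mean response, 4 passed, and 0 in the higher-share class. The other settings, leave-one-out included, kept each count within 1.5 times. With a replicate block, 4 passed in C57, 0 in BALBc, 0 for the difference of responses, 3 for the mean response, and 3 and 6 between strains in hyperoxia and normoxia; the numbers pair nothing in the labels, and 4 of 15 libraries correlated best with their own number. The block turned the Pgk1 difference of responses to -0.00481.

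Signs turned for changes near 0 or with shared reads. In the higher-share class these were Gapdh in C57 (0.343; 0.0247 with class as a term), Eno1b in C57 (-0.0333), Gm13394 in C57 (-0.18), Ldha in BALBc (-0.211), the Eno1 difference of responses (-0.0176), the Gapdh mean response (0.027) and Pfkl between strains in normoxia (-0.196); in the lower-share class it was Tpi1 between strains in normoxia (0.0372). Quantile normalization turned Gpi1 in BALBc (0.0187), the Ldha mean response (0.0257) and Ldha between strains in hyperoxia (0.00101). Added copies turned Gapdh between strains, to 1.96 in hyperoxia and 2.23 in normoxia. Leaving out single libraries gave ranges of -0.498 to 0.219 for Gapdh and -0.172 to 0.00335 for Gm4735 in C57, -0.0693 to 0.0146 for Gpi1 and -0.0244 to 0.059 for Ldha in BALBc, -0.671 to 0.0452 for Gapdh, -0.0233 to 0.0666 for Pgk1 and -0.13 to 0.00971 for Pgam1 in the difference of responses, and -0.0188 to 0.109 for Pfkl, -0.0516 to 0.0121 for Tpi1 and -0.664 to 0.0526 for Gapdh between strains in normoxia.

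Over all genes, C57 calls numbered 122, and 14 with class as a term, 20 with the groups compared alone, 70 with no filter, 74 with no variance trend, 79 with the block, 0 in the higher-share class and 36 to 237 without single libraries. BALBc calls numbered 123, and 78 with no filter, 19 and 0 within the lower-share and higher-share class and 23 to 158 without single libraries. Calls for the difference of responses numbered 107, and 28 with class as a term, 29 with no filter, 67 with the block, 0 in the higher-share class and 40 to 163 without single libraries; those for the mean response 113, and 196 with a filter at 5, 65 with class as a term, 60 with no filter, 60 with no variance trend, 0 in the higher-share class and 38 to 148 without single libraries. Between strains they numbered 3025 in hyperoxia (1935 with class as a term, 1262 in the higher-share class) and 3910 in normoxia (2206 and 1109 in the lower-share and higher-share class, 2242 with the groups compared alone). The cause of these shifts was not tested. The lower-share class holds no C57 hyperoxia library, so comparisons with that group could not be fitted there. Depth limits low values: Gapdh had 35 to 605 fragments per library, Gm13394 had 11 to 33 in C57 libraries, and the second Aldoa locus had 0 to 14.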
